A study of Saccharomyces cerevisiae with 13 samples.

Results

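Loss of an initiator methionine tRNA gene was compared with loss of 2 elongator tRNA genes in haploid S. cerevisiae. The comparison set 2 arrays of the strain labelled tM(CAU) against 4 arrays of the strains labelled tR(CCU)J and tL(GAG)G, 2 arrays each, chosen by their labels. These are 6 of the 13 arrays of the series, and the other 7 hold 3 of wild type and 4 of the strains tR(UCU)M2 and tH(GUG)G1. All strains are MATα cells of the Y5565 background. The genotype given for it lists ura3Δ0, leu2Δ0 and lyp1Δ, HIS3 under the MFA1 promoter in place of CAN1, and LEU2 under the MFα1 promoter in place of MFα1. The cells grew in YPD, a rich medium, at 30°C and were harvested in mid log phase. In each deletion strain a cassette for resistance to hygromycin B replaced the tRNA gene. The article's methods describe the wild-type control as carrying the same marker, integrated upstream of another tRNA locus. Each deletion was represented by 1 strain. The labels call the arrays of a strain biological replicates and state nothing more of how the cultures were separated, so p-values measure the spread between these samples.

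A tRNA brings an amino acid to the ribosome and reads a codon with its anticodon. The initiator methionine tRNA is used only to start a protein: the factor eIF2 carries it to the small ribosomal subunit, where it pairs with the start codon. Elongator tRNAs enter the ribosome at every later codon, and the arginine tRNA with the anticodon CCU reads AGG while the leucine tRNA with the anticodon GAG reads CUC. The arginine and leucine genes are the only copies of their families, whereas the initiator is made from several gene copies. The labels of the initiator arrays name no copy, and the article's expression set holds tiM(CAU)C as its only deletion of that anticodon. In the RefSeq R64 gene table that gene (YNCC0008W) lies on chromosome III at 149920 to 149991 and is 72 bases long, as are the 4 initiator genes IMT1 to IMT4, while the 5 elongator methionine genes EMT1 to EMT5 have 73 bases. Cells without tiM(CAU)C would thus keep other initiator genes. The role of a tRNA in initiation or elongation and the presence of further copies cannot be told apart in this comparison.

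The arginine gene tR(CCU)J (HSX1) lies on chromosome X at 538555 to 538626, and the leucine gene tL(GAG)G (YNCG0028W) on chromosome VII at 700675 to 700756. The deletions were directed by homology arms of 45 bases at the ends of the cassette primers. They are shown because they are the only sequences that define which locus was replaced, here as the primer tables of the study give them, 5′ to 3′.
tM(CAU) upstream arm: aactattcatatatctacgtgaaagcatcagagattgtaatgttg
tM(CAU) downstream arm: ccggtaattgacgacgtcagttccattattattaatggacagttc
tR(CCU)J upstream arm: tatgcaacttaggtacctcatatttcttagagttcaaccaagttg
tR(CCU)J downstream arm: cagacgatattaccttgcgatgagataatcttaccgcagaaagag
tL(GAG)G upstream arm: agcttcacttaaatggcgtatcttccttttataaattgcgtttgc
tL(GAG)G downstream arm: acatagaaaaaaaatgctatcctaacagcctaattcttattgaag
tRNA genes have no probe set on the array, so the deletions themselves could not be checked in these data.

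The arrays measured 5446 protein-coding genes as linear signals, and the values below are log2 signals unless stated. Probe sets for another yeast, S. pombe, set the background at their 95th percentile, which was 12.9 to 21.5 signal units, with 96.5 to 98.3% of the genes above it. The median gene had a log2 signal of 9.08 and 9.16 on the tM(CAU) arrays, 9.29 and 9.19 on the tR(CCU)J arrays, 9.12 and 9.07 on the tL(GAG)G arrays and 9.00 to 9.07 on the wild-type arrays. The cultures were bulk samples, in which a change in the share of cells and a change in RNA per cell cannot be told apart. Genes of MATα cells were high in all 3 deletion strains, for example STE3 at 11.41 and 11.40 in tM(CAU), 10.38 and 11.09 in tR(CCU)J and 11.43 and 11.46 in tL(GAG)G. MATa genes were low, with AGA2 at 4.37 to 5.85 on the 6 arrays. MF(ALPHA)1, which the genotype lists as deleted, nevertheless gave 12.72 and 12.77 in tM(CAU) and 12.44 to 12.80 in the elongator strains, against 2.79 to 4.53 in tR(UCU)M2 and tH(GUG)G1 and 2.54, 2.92 and 4.89 in wild type. The 3 strains compared thus went against the given genotype at this gene, while the other deletion strains had signals like those of wild type. Its part in the results was not tested.

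Few genes were called between the initiator deletion and the mean of the elongator deletions. PHM6, a gene induced when phosphate is scarce, was 5.14-fold higher in tM(CAU) than in the elongator strains. IMD2, which encodes an enzyme of GTP synthesis, TSL1, which encodes a subunit of the trehalose synthase complex, and YDR182W-A, an uncharacterized open reading frame, were lower, at 0.406, 0.469 and 0.483 times the elongator level. The comparison was tM(CAU) minus the mean of the 2 elongator strain means, tested with limma in a fit of all 13 arrays. At a Benjamini-Hochberg adjusted p under 0.05 it called 4 of the 5446 genes (0.0734%), 1 higher (0.0184%) and 3 lower (0.0551%), each with an adjusted p of 0.0383. The calls were marginal: a fit of only the 6 arrays called none, and so did leaving out wild type replicate 1 or any 1 array of tM(CAU), tL(GAG)G, tR(UCU)M2 or tH(GUG)G1.

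**Figure D1:**
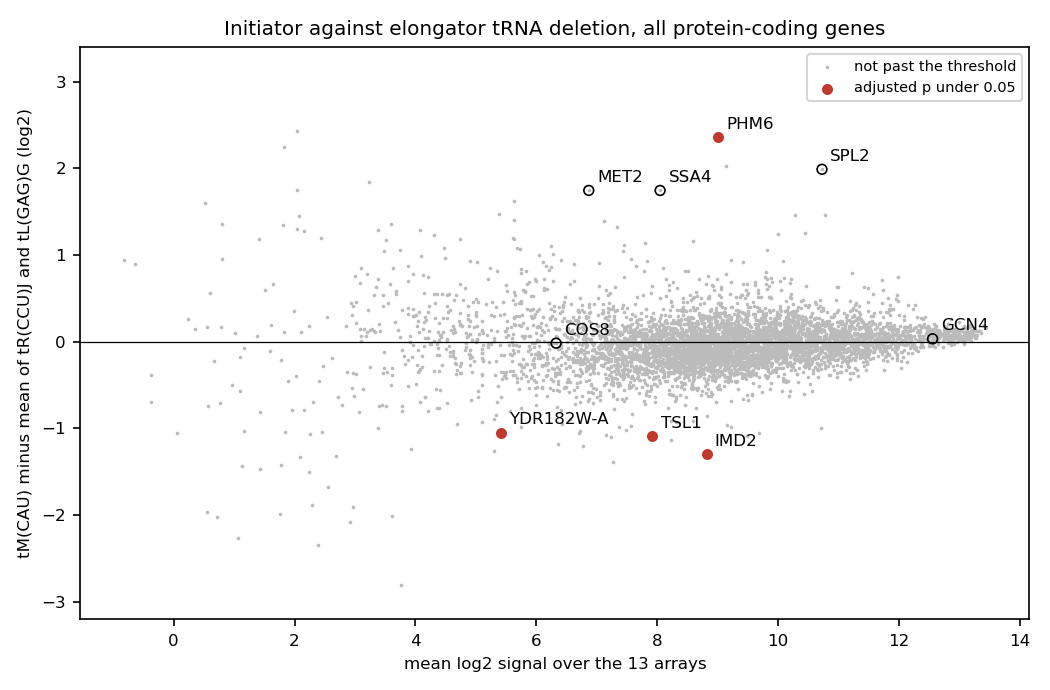
Each point is 1 of 5446 protein-coding genes, with the mean log2 signal over the 13 arrays on the x axis and the log2 difference, tM(CAU) minus the mean of tR(CCU)J and tL(GAG)G, on the y axis. Red points are the 4 genes with an adjusted p under 0.05, open circles mark other genes described in the text, and the wide scatter at log2 signals below 5 belongs to dim genes.

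Over all genes the median difference was -0.02 and its SD 0.31, and the median standard error of a gene was 0.17. Past a difference of 1 in either direction lay 85 genes, 47 higher and 38 lower. An unadjusted p under 0.05 was reached by 171 genes in the higher direction (3.14%) and 297 in the lower (5.45%). Both tM(CAU) arrays lay above all 4 elongator arrays at 358 genes (6.57%) and below all 4 at 549 genes (10.1%). By sign alone, 2448 of the 5446 genes had a higher mean in tM(CAU) and 2998 a lower one. These counts and shares are the background against which the gene groups are read.

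The elongator strains differed from each other more than tM(CAU) differed from tL(GAG)G. Against tR(CCU)J alone, 91 genes were called (1.67%), 31 higher (0.569%) and 60 lower (1.1%). Against tL(GAG)G alone limma called 0 genes, with 239 (4.39%) at an unadjusted p under 0.05, and a trended and robust prior called 4. The direct comparison of tR(CCU)J with tL(GAG)G called 135 genes (2.48%), 97 higher (1.78%) and 38 lower (0.698%). The SD of the differences over all genes was 0.45 against tR(CCU)J, 0.32 against tL(GAG)G and 0.47 between the elongator strains. The directions depended on scaling: with each array centred on its median the calls were 14 higher and 11 lower against tR(CCU)J and 38 higher and 45 lower between the elongator strains, and after quantile normalization they were 87 higher and 51 lower, and 43 higher and 68 lower. A fit with a replicate block, made on the 10 deletion arrays without wild type, called 152 genes against tR(CCU)J. Leaving out 1 tM(CAU) array left 2 or 0 calls against tR(CCU)J, and leaving out 1 tL(GAG)G array left 14 or 5 between the elongator strains. No gene was called against both elongator strains in the main fit.

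PHM6 gave 10.04 and 9.94 in tM(CAU), 8.02 and 7.04 in tR(CCU)J, 7.99 and 7.46 in tL(GAG)G and 9.67, 9.43 and 8.98 in wild type. Both tM(CAU) arrays thus lay above every elongator array, and also above every wild-type array. The difference from the elongator strains was 2.36 ± 0.27 (SE, n = 2 and 4 arrays), with a 95% interval of 1.75 to 2.98, and it was 2.04 within replicate 1 and 2.68 within replicate 2. Set against each strain, it was 2.46 over tR(CCU)J and 2.26 over tL(GAG)G. Compared with wild type, PHM6 differed by 0.63 in tM(CAU), -1.83 in tR(CCU)J and -1.63 in tL(GAG)G, contrasts that share the wild-type arrays, and only that of tR(CCU)J was called (limma, adjusted p = 0.014). The larger share of the distance between initiator and elongator strains therefore lay on the elongator side of wild type. PHM6 was called in 11 of 22 alternative settings, with adjusted p from 0.0052 to 0.34.

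Most other genes of a phosphate list lay in the same direction without passing the test. The list was written around the phosphate regulon, the genes that the activator Pho4 turns on when phosphate is scarce. PHO4 itself and PHO3 are also in it. Of its 16 measured genes, PHM6 included, 13 were higher in tM(CAU). Only PHM6 was called, and 4 had an unadjusted p under 0.05 in the higher direction, beside 3.14% of all genes. The median difference of the list was 0.37 beside -0.02 over all genes. Both tM(CAU) arrays lay above all 4 elongator arrays at 6 of the 16, beside 6.57% of all genes. The median was 0.30 within replicate 1 and 0.44 within replicate 2, and 0.41 over tR(CCU)J and 0.31 over tL(GAG)G.

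SPL2, which restrains low-affinity phosphate uptake, gave 11.69 and 11.31 in tM(CAU), 10.82 and 9.36 in tR(CCU)J, 9.43 and 8.44 in tL(GAG)G and 11.68, 11.26 and 10.69 in wild type. The tM(CAU) arrays were the highest of the 6, but the 2 arrays of each elongator strain were far apart, and the difference of 1.99 ± 0.43 was not called (adjusted p = 0.263). PHO86, needed for the phosphate transporter Pho84 to leave the endoplasmic reticulum, showed a small but even difference, with 11.98 and 11.92 in tM(CAU), 11.44 and 11.36 in tR(CCU)J, 11.25 and 11.35 in tL(GAG)G and 11.95, 11.92 and 11.78 in wild type. Its difference was 0.60 ± 0.10 (adjusted p = 0.159). PCL7, a cyclin of the kinase Pho85, gave 9.03 and 9.31 in tM(CAU) against 8.85 and 8.17 in tR(CCU)J and 8.52 and 8.53 in tL(GAG)G, a difference of 0.65 (adjusted p = 0.36).

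The acid phosphatases and phosphate transporters of the list, named after their values were seen, were less even. PHO11, a secreted acid phosphatase whose sequence is close to that of PHO12, gave 11.68 and 10.72 in tM(CAU), 10.14 and 8.71 in tR(CCU)J and 10.36 and 9.75 in tL(GAG)G. PHO5, the main repressible acid phosphatase, gave 11.38 and 10.42 in tM(CAU), but 11.48 and 8.73 in tR(CCU)J and 8.92 and 8.61 in tL(GAG)G, so the groups overlapped. PHO89, a sodium-dependent phosphate transporter, had 10.63 and 9.62 in tM(CAU), 9.08 and 5.93 in tR(CCU)J and 9.31 and 8.07 in tL(GAG)G. For these genes the second array of each strain lay below the first. PHO84, the main high-affinity transporter, had a high signal and a small difference of 0.37, with 12.46 and 12.19 in tM(CAU) against 11.60 to 12.19 on the elongator arrays. The 3 genes with lower means in tM(CAU) were PHO3, GIT1 and PHO4, by 0.09 to 0.30. Relative to the wild-type mean, the median of the list was 0.26 and -0.02 on the tM(CAU) arrays, -0.08 and -0.57 on the tR(CCU)J arrays, -0.10 and -0.47 on the tL(GAG)G arrays and 0.30, -0.01 and -0.31 on the wild-type arrays. The second array of each elongator strain lay below every wild-type array, and the tM(CAU) arrays lay within the wild-type range.

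**Figure D2:**
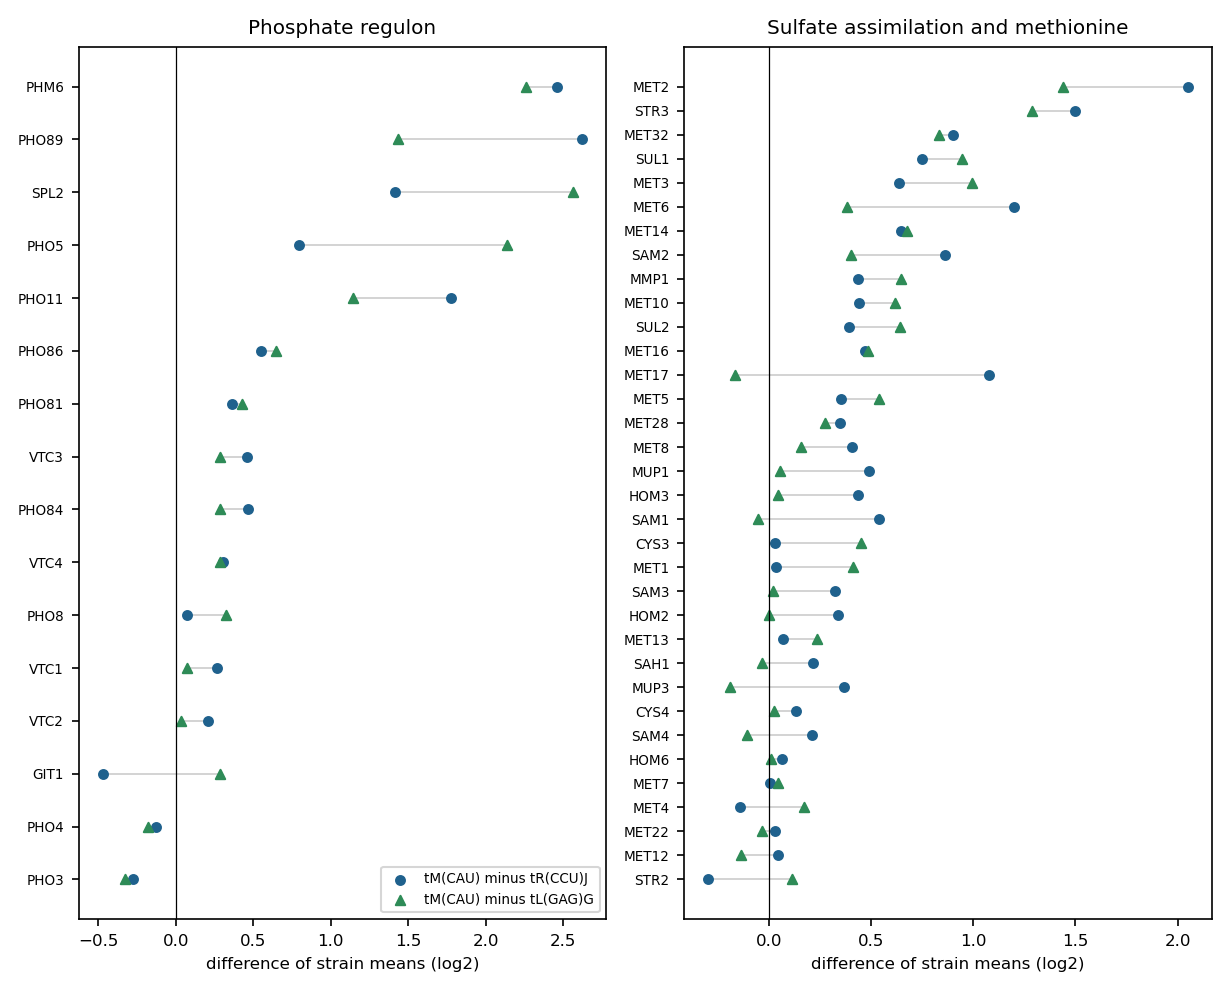
Log2 difference of tM(CAU) from tR(CCU)J (blue circles) and from tL(GAG)G (green triangles) on the x axis, for each of the 16 measured phosphate genes (left) and the 34 sulfate and methionine genes (right), sorted by their mean difference. PHM6 is more than 2 above both elongator strains, while most sulfate and methionine genes lie between 0 and 1.

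IMD2, an IMP dehydrogenase at the branch to GTP, gave 7.91 and 8.01 in tM(CAU), 9.27 and 8.94 in tR(CCU)J, 9.59 and 9.24 in tL(GAG)G and 8.63, 8.81 and 8.30 in wild type. The tM(CAU) arrays lay below and the elongator arrays above the 3 wild-type arrays. The difference was -1.30 ± 0.18 (95% interval -1.69 to -0.91), -1.14 from tR(CCU)J and -1.46 from tL(GAG)G. IMD3 and IMD4, which encode closely related enzymes and were named after their values were seen, differed by -0.01 and 0.00, so that the difference was not shared by the family. IMD3 stood at 11.97 and 11.85 in tM(CAU) against 11.79 to 12.10 in the elongator strains.

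YDR182W-A was dim, at 4.93 and 4.96 in tM(CAU), 6.16 and 5.92 in tR(CCU)J, 5.94 and 5.97 in tL(GAG)G and 5.0, 5.07 and 5.43 in wild type. All 6 arrays were above background, and the tM(CAU) arrays lay below all wild-type arrays as well. The difference was -1.05 ± 0.14, with -1.09 from tR(CCU)J and -1.01 from tL(GAG)G. This gene, PHM6 and IMD2 were the called genes at which both elongator strains lay on the same side by about the same amount: a difference between the elongator strains was not called at any of them (adjusted p from 0.434 to 0.802).

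TSL1 was different. It gave 7.67 and 7.63 in tM(CAU), 9.47 and 9.74 in tR(CCU)J, 7.94 and 7.82 in tL(GAG)G and 7.63, 7.53 and 7.92 in wild type. The tR(CCU)J arrays alone stood apart: the difference of tM(CAU) was -1.95 from tR(CCU)J and -0.23 from tL(GAG)G, and the elongator strains differed from each other by 1.72 (limma, adjusted p = 0.0027). With the replicate block TSL1 was no longer called (adjusted p = 0.074). In that fit NDJ1, a gene of meiotic chromosome pairing named after its values were seen, was called instead, with 6.44 and 5.79 in tM(CAU), 4.16 and 3.55 in tR(CCU)J and 5.65 and 5.22 in tL(GAG)G.

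**Figure D3:**
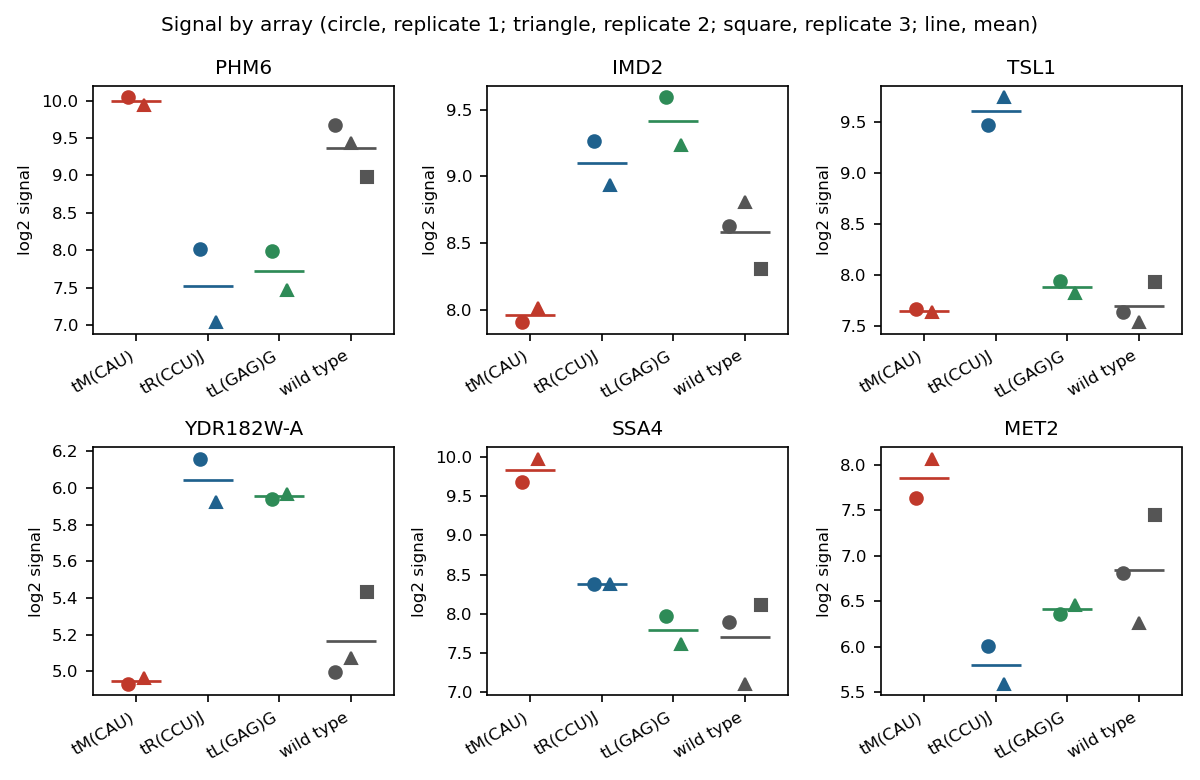
Log2 signal (y axis) of 6 genes on the arrays of tM(CAU), tR(CCU)J, tL(GAG)G and wild type, from left to right on the x axis, with 1 symbol per array and a line at the mean. PHM6, SSA4 and MET2 are highest and IMD2 and YDR182W-A lowest in tM(CAU), whereas TSL1 is set apart by tR(CCU)J alone.

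The general stress list, which itself holds TSL1, had medians in the same pattern. Of 39 general stress genes, 37 were lower in tM(CAU) and 1 was called, beside 0.0551% of all genes called lower. An unadjusted p under 0.05 in the lower direction was reached by 13, beside 5.45% of all genes. Their median was -0.54 beside -0.02 over all genes. The median was -0.96 from tR(CCU)J, however, and -0.07 from tL(GAG)G. Relative to wild type the list's median was -0.15 and 0.23 on the tM(CAU) arrays, 0.95 and 1.15 on the tR(CCU)J arrays and 0.02 and -0.00 on the tL(GAG)G arrays. Against tR(CCU)J 5 of the 39 were called lower, beside 1.1% of all genes: TSL1, GAD1, MSC1 and, named after their values were seen, TMA10 and GSY2, of which TMA10 was no longer called with the replicate block. GAD1, a glutamate decarboxylase, gave 7.02 and 7.32 in tM(CAU), 8.66 and 9.26 in tR(CCU)J and 7.39 and 7.31 in tL(GAG)G.

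Of 20 genes of trehalose and glycogen metabolism, 16 were lower in tM(CAU) and 1, TSL1, was called, with a median of -0.49 from tR(CCU)J and 0.01 from tL(GAG)G. The list is not separate from the general stress list: TSL1, TPS1, TPS2, PGM2, GSY2 and GPH1 are in both. TPS1, which makes trehalose phosphate, gave 9.20 and 9.50 in tM(CAU), 10.16 and 10.46 in tR(CCU)J and 9.74 and 9.74 in tL(GAG)G. It was not called (-0.68, adjusted p = 0.362). The iron regulon, the genes of iron uptake, likewise had a median of -0.49 from tR(CCU)J and 0.05 from tL(GAG)G. In each of these lists the leucine strain had a median close to that of tM(CAU).

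Among heat shock chaperones the clearest contrast was that of SSA4, a stress-induced Hsp70. It gave 9.68 and 9.98 in tM(CAU), 8.37 and 8.38 in tR(CCU)J, 7.97 and 7.62 in tL(GAG)G and 7.90, 7.11 and 8.11 in wild type. The tM(CAU) arrays lay above the other 7 arrays, with a difference of 1.74 ± 0.31 from the elongator strains and 2.12 from wild type, but neither was called (adjusted p = 0.159 and 0.13). HSP104, a protein disaggregase, gave 11.10 and 11.40 in tM(CAU), 10.36 and 11.16 in tR(CCU)J, 10.40 and 10.14 in tL(GAG)G and 9.27 to 10.38 in wild type, so that the groups overlapped. The 40 chaperone genes together were divided, with 22 higher and 18 lower, none called, and a median of 0.06. A list of 19 genes of folding and degradation in the endoplasmic reticulum and of the unfolded protein response, IRE1 and HAC1 included, had a median of 0.01.

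The proteasome genes differed by small amounts, from -0.37 to 0.16. Of 35 genes 33 had a lower mean in tM(CAU) and none was called. An unadjusted p under 0.05 in the lower direction was reached by 6, beside 5.45% of all genes, and the median was -0.18. Both tM(CAU) arrays lay below all 4 elongator arrays at 15 of the 35, beside 10.1% of all genes. The median was -0.27 from tR(CCU)J and -0.13 from tL(GAG)G. RPN4, the transcriptional activator of the proteasome genes, gave 10.01 and 10.13 in tM(CAU), 10.53 and 10.72 in tR(CCU)J, 10.28 and 10.21 in tL(GAG)G and 9.96, 9.86 and 10.06 in wild type, and was not called (-0.37, adjusted p = 0.371). UMP1, a chaperone of proteasome assembly, gave 10.92 and 10.97 in tM(CAU), 11.56 and 11.43 in tR(CCU)J and 11.14 and 11.07 in tL(GAG)G. Relative to wild type the list's median was 0.02 and 0.08 on the tM(CAU) arrays, 0.26 and 0.37 on the tR(CCU)J arrays, 0.22 and 0.14 on the tL(GAG)G arrays and -0.04 to 0.09 on the wild-type arrays. The tM(CAU) arrays thus lay within the wild-type range and the 4 elongator arrays above it. The median of all genes moved too, by 0.05 and 0.08 on the tM(CAU) arrays, 0.22 and 0.11 on the tR(CCU)J arrays and 0.06 and 0.03 on the tL(GAG)G arrays.

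**Figure D4:**
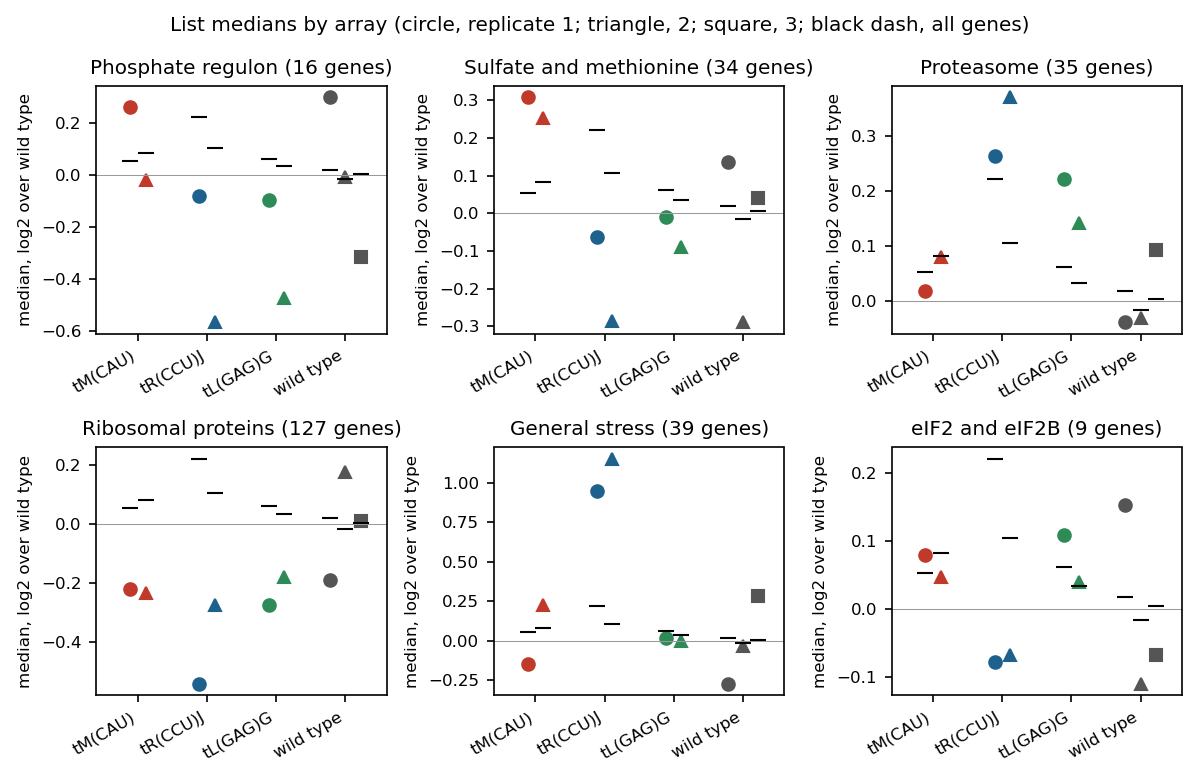
Median over each list of the log2 signal minus the gene's mean over the 3 wild-type arrays (y axis), by array, for tM(CAU), tR(CCU)J, tL(GAG)G and wild type from left to right on the x axis; black dashes give the same for all genes. General stress genes reach 0.95 and 1.15 in tR(CCU)J alone, and proteasome genes lie higher on all 4 elongator arrays than on the tM(CAU) arrays.

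Genes of sulfate assimilation and methionine synthesis, the pathway that supplies the amino acid of the initiator, were mostly higher in tM(CAU). Of 34 genes 31 were higher and none was called, with a median of 0.26. An unadjusted p under 0.05 in the higher direction was reached by 7, beside 3.14% of all genes. Both tM(CAU) arrays lay above all 4 elongator arrays at 12 of the 34, beside 6.57% of all genes. The median was 0.20 and 0.33 within replicates 1 and 2, and 0.38 over tR(CCU)J and 0.20 over tL(GAG)G. Relative to wild type it was 0.31 and 0.25 on the tM(CAU) arrays, -0.06 and -0.29 on the tR(CCU)J arrays, -0.01 and -0.09 on the tL(GAG)G arrays and -0.29 to 0.14 on the wild-type arrays.

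MET2, which activates homoserine for methionine synthesis, had the largest difference of the list, with 7.64 and 8.06 in tM(CAU), 6.0 and 5.59 in tR(CCU)J, 6.36 and 6.46 in tL(GAG)G and 6.81, 6.27 and 7.44 in wild type. The groups did not overlap, but the difference of 1.75 ± 0.36 was not called (adjusted p = 0.243). The first steps of sulfate assimilation lay alike: MET3, ATP sulfurylase, gave 8.45 and 8.57 in tM(CAU), 8.02 and 7.72 in tR(CCU)J and 7.65 and 7.37 in tL(GAG)G. MET14, the kinase that acts next, gave 10.28 and 10.30 in tM(CAU), 9.92 and 9.38 in tR(CCU)J and 9.68 and 9.55 in tL(GAG)G. MET32, a transcription factor of the pathway, differed by 0.86 ± 0.22 (adjusted p = 0.345).

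Later steps, named after their values were seen, included MET6, methionine synthase, with 11.86 and 11.54 in tM(CAU), 10.71 and 10.29 in tR(CCU)J, 11.36 and 11.27 in tL(GAG)G and 11.76, 10.50 and 11.48 in wild type. SAM2, which makes S-adenosylmethionine, gave 11.43 and 11.40 in tM(CAU) against 10.32 to 11.01 on the elongator arrays. For both, one wild-type array was as low as the tR(CCU)J arrays and the other two were near tM(CAU). MET17, the sulfhydrylase of the pathway, was near background throughout, at 4.40 and 2.92 in tM(CAU), 3.27 and 1.90 in tR(CCU)J, 4.12 and 3.53 in tL(GAG)G and 0.99 to 3.19 in wild type, so no order can be read from it. The genotype given lists no change at MET17, and the cause of its low signal was not tested.

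The machinery that handles the initiator tRNA showed no called gene, beside 0.0734% of all genes. At that share, lists this short would mostly hold none. The 9 genes of eIF2, its exchange factor eIF2B and the assembly factor CDC123 had a median difference of 0.04, 5 higher and 4 lower, with differences from -0.19 to 0.22. That median combined 0.13 over tR(CCU)J and -0.08 over tL(GAG)G. SUI2, the alpha subunit of eIF2, gave 11.53 and 11.57 in tM(CAU), 11.18 and 11.27 in tR(CCU)J and 11.58 and 11.71 in tL(GAG)G. Its difference of 0.11 had a 95% interval of -0.14 to 0.36. For the beta subunit SUI3 and the gamma subunit GCD11, which binds the tRNA, the intervals were -0.19 to 0.43 and -0.28 to 0.15. GCD6, the catalytic subunit of eIF2B, differed by 0.22 ± 0.12, with 0.45 over tR(CCU)J and -0.01 over tL(GAG)G.

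The 8 enzymes that modify, charge or process the initiator tRNA or its methionine had a median of -0.02, with 0.08 over tR(CCU)J and -0.15 over tL(GAG)G. MES1, methionyl-tRNA synthetase, differed by -0.04 (95% interval -0.29 to 0.21), and RIT1, which marks initiator tRNAs so that they do not take part in elongation, by -0.07. Other initiation factors (22 genes, median 0.02), elongation and termination factors (12 genes, 0.06) and cytosolic aminoacyl-tRNA synthetases (18 genes, -0.01) had no called member either. Their medians were 0.13, 0.14 and 0.11 over tR(CCU)J, and -0.07, -0.05 and -0.12 over tL(GAG)G. GCN4, the activator of amino acid synthesis whose translation depends on eIF2 and the initiator tRNA, gave 12.51 and 12.42 in tM(CAU), 12.39 and 12.44 in tR(CCU)J and 12.45 and 12.46 in tL(GAG)G. The arrays measure its transcript and not its translation.

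Amino acid synthesis genes outside the methionine pathway followed the arginine strain. The 8 measured arginine genes had a median of 0.34, which was 0.56 over tR(CCU)J and 0.04 over tL(GAG)G. ARG3, ornithine carbamoyltransferase, gave 10.97 and 9.91 in tM(CAU), 7.68 and 8.30 in tR(CCU)J, 10.69 and 10.09 in tL(GAG)G and 10.86 to 11.97 in wild type. It was called over tR(CCU)J (2.45, adjusted p = 0.042) and differed by 0.06 from tL(GAG)G. Lysine, branched-chain and aromatic genes had medians of 0.31, 0.23 and 0.25 over tR(CCU)J, and -0.02, -0.01 and -0.02 over tL(GAG)G. Relative to wild type these and the histidine list also had negative medians in all 3 strains, lowest in tR(CCU)J. In tM(CAU) the lysine, branched-chain, aromatic and histidine medians ran from -0.02 (branched-chain) to -0.23 (lysine). The arginine list lay further below wild type, with medians of -0.63 in tM(CAU), -1.02 in tR(CCU)J and -0.59 in tL(GAG)G. HIS2, histidinol phosphatase, was an exception, with 9.54 and 9.48 in tM(CAU), 9.83 and 9.79 in tR(CCU)J and 8.48 and 8.13 in tL(GAG)G. Its difference of 1.20 from tL(GAG)G was not called in the main fit (adjusted p = 0.059), and the elongator strains differed at it by 1.51 (adjusted p = 0.0027). TRP4 of the aromatic list also differed more from tL(GAG)G (0.84) than from tR(CCU)J (0.26), and neither difference was called.

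Ribosome genes depended on the scaling. Of 127 cytosolic ribosomal protein genes 116 were higher in tM(CAU), none was called, and the median was 0.09, with 0.18 over tR(CCU)J and -0.00 over tL(GAG)G. With each array centred on its median all 127 were higher (median 0.13), and after quantile normalization 76 were (median 0.02). Ribosome biogenesis factors had a median of 0.15 over tR(CCU)J and 0.00 over tL(GAG)G. LOC1, which acts in ribosome assembly and mRNA localization, gave 10.78 and 10.64 in tM(CAU), 9.97 and 9.71 in tR(CCU)J and 10.69 and 10.84 in tL(GAG)G. The 10 subunits specific to RNA polymerase III, which transcribes tRNA genes, had a median of 0.03, and its factors TFIIIC and TFIIIB with the repressor Maf1 one of -0.16, none called.

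**Figure D5:**
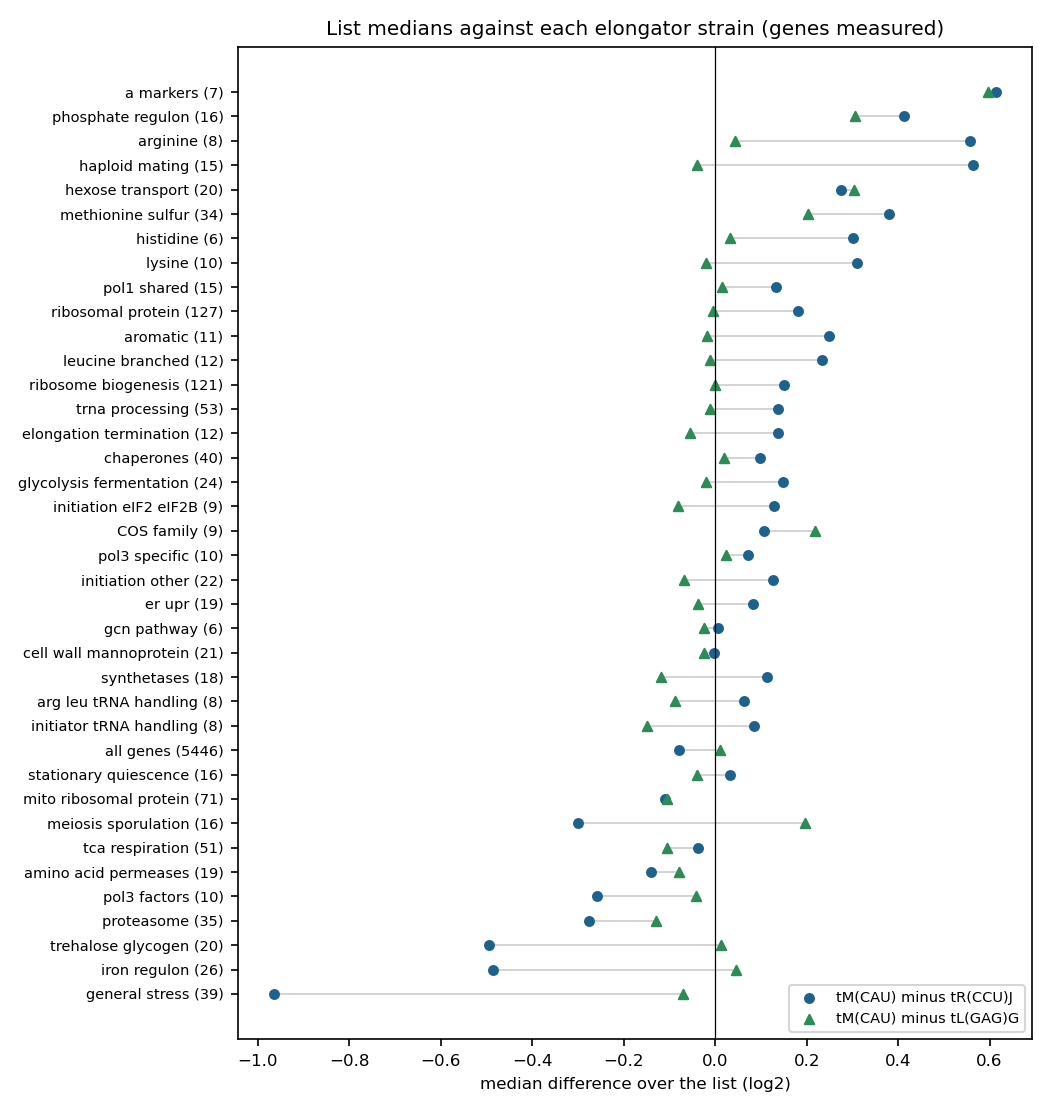
Median log2 difference of tM(CAU) from tR(CCU)J (blue circles) and from tL(GAG)G (green triangles) on the x axis, for each gene list with 5 or more measured genes, sorted by the median of the combined comparison, with the number of genes in brackets. The phosphate, methionine and proteasome lists have both symbols on one side of 0, and so do others. Among these are the a markers (0.61 from tR(CCU)J and 0.60 from tL(GAG)G), hexose transport (0.27 and 0.30) and mito ribosomal protein (-0.11 and -0.11). General stress, iron, trehalose and arginine lists are near 0 against tL(GAG)G.

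Haploid and mating genes were split in the same way, but MATa genes were not. Of 15 haploid and mating genes 14 were higher in tM(CAU), with medians of 0.56 over tR(CCU)J and -0.04 over tL(GAG)G, and 3 were called over tR(CCU)J, beside 0.569% of all genes. KAR4, a transcription factor of the pheromone response, gave 9.93 and 9.84 in tM(CAU), 8.82 and 8.48 in tR(CCU)J, 9.99 and 9.88 in tL(GAG)G and 9.30, 9.25 and 9.04 in wild type. Only tR(CCU)J lay below wild type, and tM(CAU) and tL(GAG)G lay above it. Of the 7 MATa genes 6 were higher in tM(CAU), with a median of 0.62. The median was 0.61 over tR(CCU)J and 0.60 over tL(GAG)G. All 7 had low signals, for example MFA1 at 6.96 and 6.93 in tM(CAU), 6.04 and 5.97 in tR(CCU)J, 6.18 and 6.32 in tL(GAG)G and 5.22 to 6.37 in wild type. None was called, and the MFA1 promoter also drives HIS3 in this background.

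Among the remaining genes that met the naming rule without being called, the higher ones were spread over unrelated functions. EPS1, a membrane protein of the endoplasmic reticulum related to disulfide isomerases, gave 10.07 and 9.96 in tM(CAU) against 9.32 to 9.38 on the elongator arrays. BNA5, kynureninase in NAD synthesis, gave 9.42 and 9.43 in tM(CAU) against 8.59 to 8.81. DIC1, the mitochondrial dicarboxylate carrier, YHR054C, YNL234W and GDS1 had differences of 0.51 to 0.73 (adjusted p from 0.189 to 0.366). ADH2, the alcohol dehydrogenase repressed by glucose, gave 8.13 and 8.02 in tM(CAU), 7.39 and 6.93 in tR(CCU)J and 6.70 and 6.83 in tL(GAG)G, a difference of 1.11 ± 0.20 (adjusted p = 0.159).

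On the lower side SNF7, a subunit of the ESCRT-III complex that sorts membrane proteins, gave 9.84 and 9.95 in tM(CAU), 10.55 and 10.66 in tR(CCU)J, 10.27 and 10.61 in tL(GAG)G and 10.06 to 10.10 in wild type. It lay below wild type in tM(CAU) and above it in both elongator strains, by a difference of -0.63 ± 0.11 (adjusted p = 0.159). CIT1, mitochondrial citrate synthase, gave 9.19 and 9.88 in tM(CAU), 11.14 and 10.84 in tR(CCU)J and 10.22 and 10.15 in tL(GAG)G. SIT1, a transporter of iron-bound siderophores, FMC1, which helps assemble the mitochondrial ATP synthase, YJL218W and YLR342W-A differed by -0.61 to -1.09, with adjusted p from 0.36 to 0.626.

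The genes next to the deleted loci were examined because a cassette can alter its neighbours. SRD1 lies 1016 bases to the left of tiM(CAU)C and gave 10.19 and 9.80 in tM(CAU), 8.83 and 8.64 in tR(CCU)J, 9.75 and 9.89 in tL(GAG)G and 9.87, 10.35 and 9.74 in wild type. The arrays that stood apart were thus those of tR(CCU)J, where another chromosome was altered, and the contrast with tR(CCU)J was called (1.26, adjusted p = 0.04). MAK32, 2845 bases to the right, differed by 0.10. HIT1, 145 bases to the right of tR(CCU)J, gave 8.95 and 9.26 in tM(CAU), 8.81 and 7.03 in tR(CCU)J and 8.81 and 8.76 in tL(GAG)G, low on 1 of the 2 arrays of its own strain. KCH1, VOA1 and CLB1 differed by 0.07, 0.16 and 0.32, none called.

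COS8, a membrane protein gene near a chromosome end, did not separate the initiator strain from the elongator strains. It gave 8.93 and 8.97 in tM(CAU), 8.97 and 8.27 in tR(CCU)J, 9.42 and 9.21 in tL(GAG)G and 4.71, 4.21 and 4.11 in wild type. The difference between initiator and elongator strains was -0.02, with a 95% interval of -0.77 to 0.74, while all 6 arrays of these strains lay above the 3 wild-type arrays. Together with MF(ALPHA)1 it was a gene at which the 3 strains shared a level far from wild type.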

How the data were processed

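RNA of 13 cultures was measured on Affymetrix yeast 2.0 arrays after priming with poly(T). The article's methods name RMA background adjustment and normalization, and the labels name GCRMA without a version. The values deposited by the authors are linear intensities with a trimmed mean of about 500 on each array (2% cut at each end, 500.2 to 500.3), so log2 of the deposited intensity was taken with no offset. Of 10928 probe sets 5495 matched 1 protein-coding gene of RefSeq R64 (5446 genes), with the brightest probe set used for 47 genes, and 1746 S. pombe probe sets set the background.

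Strains were compared with limma 3.58.1 (R 4.3.3): 1 mean per strain, 13 arrays, constant prior, 7 residual degrees of freedom, Benjamini-Hochberg adjustment over all genes. The number of arrays limits the precision. The members, gene lists and tests were chosen with earlier results of these data known. Named genes were those called with both tM(CAU) arrays outside the 4 elongator arrays, then uncalled ones with the smallest p at a mean log2 over 8 and at least 0.5 from each elongator strain, up to 12 in each direction, and the neighbours, COS8, MF(ALPHA)1 and up to 3 genes per list.

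Deviations of same-numbered arrays from their strain means correlated over 3992 genes (r = 0.224 for tM(CAU) with tR(CCU)J, 0.24 for tM(CAU) with tL(GAG)G and 0.565 between the elongator strains). Same-numbered arrays were therefore treated as pairs in the replicate block and in the within-replicate values. The main fit did not pair them. The pairing is inferred from the data. The article describes wild-type controls by batch, which the labels do not give, so batch was not modelled. Codon content was not analysed here. Alternatives were the replicate block, other sets of arrays, median centring, quantile normalization, filters on dim genes, the mean of probe sets, a trended and robust prior and leaving out each array.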

Additional observations from a re-analysis of the deposited data

Results flagged for a closer look

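TSL1 was called in the combined comparison, yet the elongator strains differed from each other at it by 1.72 (tR(CCU)J minus tL(GAG)G, log2, limma, adjusted p = 0.0027). Its difference was -1.95 from tR(CCU)J and -0.23 from tL(GAG)G, higher on 2 of 2 tR(CCU)J arrays than on any other of the 6.

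SRD1, the left neighbour of tiM(CAU)C, also differed between the elongator strains, by -1.08 (tR(CCU)J minus tL(GAG)G, adjusted p = 0.047), with tM(CAU) 1.26 above tR(CCU)J and 0.18 above tL(GAG)G. Both tR(CCU)J arrays were the lowest of the 6.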

How the results depend on the processing

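The 4 calls between initiator and elongator strains were few and close to the threshold. The count was 4 with the replicate block, 0 with only the 6 arrays compared and 0 when those were fitted with the replicate block, 1 after median centring and 2 with genes of mean log2 signal over 8. Leaving out 1 array gave 0 to 6 genes: 0 without wild type replicate 1, either tM(CAU) array, either tL(GAG)G array or any tR(UCU)M2 or tH(GUG)G1 array, 1 (PHM6) without either tR(CCU)J array, and 6 without wild type replicate 2. Against tR(CCU)J the count of 91 became 152 with the replicate block, 4 with the 6 arrays, 0 with the 6 arrays and the replicate block, 25 after median centring and 138 after quantile normalization, and leaving out 1 array gave 0 to 82: 2 and 0 without tM(CAU) replicate 1 or 2, 8 without either tL(GAG)G array, 12 and 48 without tR(CCU)J replicate 1 or 2, 27 without wild type replicate 3, 29 to 32 without an array of tH(GUG)G1 or tR(UCU)M2 and 82 without wild type replicate 1 or 2. Against tL(GAG)G the count of 0 became 1 after median centring, 5 after quantile normalization, 4 with genes over 8 and 4 with the trended and robust prior, and was 0 to 1 without 1 array. Between the elongator strains the count of 135 became 2 with the 6 arrays, 45 with the 6 arrays and the replicate block and 83 after median centring, and 5 to 116 without 1 array: 14 and 5 without tL(GAG)G replicate 1 or 2, 11 without tR(CCU)J replicate 1, 35 without either tM(CAU) array, 58 without wild type replicate 3 and 83 or more otherwise. Genes called against both elongator strains numbered 4 after quantile normalization (PHM6, PHO86, IMD2 and YDR182W-A), 2 with genes over 8, 2 with the trended and robust prior and 0 to 1 without 1 array. Where 1 array of a strain remained, its spread was taken to equal that of the other strains. The cause of these changes was not tested beyond the smaller number of arrays or genes. Of the single genes, PHM6 lost its call in 11 alternatives and IMD2, TSL1 and YDR182W-A in 15 each, and PHO86, SSA4, ADH2 and NDJ1 gained one in 1 each. Within 1 replicate 64 values for 32 genes moved by more than their standard error. There were 31 sign changes at 15 uncalled genes, 30 of them to values under 0.3 in size. URA3, a dim gene that the genotype lists as ura3Δ0, changed sign by more: leaving out 1 array gave -0.67 (without tM(CAU) replicate 2) to 1.99 (without tM(CAU) replicate 1). No expression difference was read from it. In the combined comparison the replicate block changed the calls of TSL1 (lost) and NDJ1 (gained) among 156 genes examined singly. Against tR(CCU)J it added 12 (among them SSA4, SIT1, HIS4, MET32, TPS1, ADH2, PHO11, PHO89 and MET6) and removed 3 (RSM22, FRE3 and TMA10), and against tL(GAG)G it changed 0. Codon content could not be run.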
